A study of Mus musculus with 8 samples.

Results

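The 10 genes described here encode proteins of tendon and cartilage matrix and the transcription factors of tendon cells. They are Tnmd, Scx, Mkx, Comp, Chad, Fmod, Thbs4, Cilp, Cilp2 and Kera, and they were picked by symbol from the 49315 genes counted in the gastrocnemius, the large calf muscle that ends in the Achilles tendon. The muscles came from C57BL/6 mice aged 3, 12, 24 or 30 months, an inbred strain with no transgene or treatment named in the labels, and each age has 2 RNA sequencing libraries, 8 in all. Whole muscle was frozen and its total RNA extracted, so tendon ends, fascia, nerve, vessels and fat can all add transcripts to those of the fibres. In such bulk samples fewer cells of a type and less RNA per cell cannot be told apart. Nothing in the labels ties the paired libraries to different mice, and every p-value here measures spread among libraries, which may be technical.

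Tendon cells align along the force axis and lay down collagen fibrils that link muscle to bone. The basic helix-loop-helix factor Scx marks tendon progenitors, the homeobox factor Mkx keeps the tendon programme going, and Tnmd, a membrane glycoprotein, marks maturing tendon cells. Fmod and Kera are small leucine-rich proteoglycans that bind collagen fibrils and help set their thickness, and Chad is a leucine-rich protein first known from cartilage. Comp and Thbs4 belong to the thrombospondins, secreted multimers that bind collagen, and Cilp and Cilp2 are related secreted proteins of the cartilage intermediate layer, of which Cilp is known to bind TGF-beta.

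Library totals lay between 42404254 and 59245029 counts. Levels are given as CPM, counts for each 1000000 of the library total after scaling by TMM, a factor that evens out libraries with a few very abundant genes. A gene was tested if it passed a filter on low counts, and all 10 members did, with a smallest count of 49 (Kera in replicate 2 of 30 months). Fibre genes such as Acta1, the actin of skeletal muscle, and Myh4, a fast myosin, identify the tissue, with 8 of them summing to 93786 to 184942 CPM. Of the cartilage list of 17 genes, which summed to 180 to 297 CPM, most came from Sox6 at 151 to 255 CPM, a factor that muscle fibres also express, and Col11a2 had 10.7 to 17.9 CPM. The genes that define chondrocytes were lower: Col2a1, the main cartilage collagen, lay between 0.214 and 0.927 CPM, the proteoglycan gene Acan reached at most 0.505 CPM and Matn1 had no count in 6 of the 8 libraries. The bone gene Bglap reached 0.115 CPM. Libraries also differed in transcripts of kidney genes, of which 9 summed to 0.682 to 0.769 CPM in replicate 2 of 12 and 24 months and replicate 1 of 30 months, and to 3.74 to 50.6 CPM elsewhere.

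RefSeq promoters (GRCm38.p6) were searched for 7 members, with Scx, Mkx and Comp left out. Those of Fmod, Thbs4, Chad and Cilp, 4 in all, are printed. Fmod and Thbs4 were the most abundant members, and their levels ran together. Chad was lower in the old libraries, and Cilp was higher there. Each run holds the 250 bases before the transcription start, read 5′ to 3′ on the strand of the gene. Capitals mark each CANNTG, the E-box to which helix-loop-helix factors such as Scx bind, and each TATAAA, a form of the TATA box. Both were searched on both strands, with no overlap between them. Other forms of that box, such as tatataag near the end of the Cilp run, were not searched.
Fmod, chr1:134037004-134037253, plus strand: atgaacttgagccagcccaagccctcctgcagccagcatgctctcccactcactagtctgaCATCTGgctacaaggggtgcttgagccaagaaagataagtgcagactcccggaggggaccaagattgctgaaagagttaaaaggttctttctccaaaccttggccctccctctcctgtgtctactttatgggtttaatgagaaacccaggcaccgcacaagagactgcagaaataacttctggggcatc
Thbs4, chr13:92794819-92795068, minus strand: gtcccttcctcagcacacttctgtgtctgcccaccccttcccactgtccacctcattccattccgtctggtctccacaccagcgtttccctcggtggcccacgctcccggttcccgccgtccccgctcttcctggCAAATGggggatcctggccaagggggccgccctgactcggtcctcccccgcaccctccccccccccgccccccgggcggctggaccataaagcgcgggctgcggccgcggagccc
Chad, chr11:94564797-94565046, plus strand: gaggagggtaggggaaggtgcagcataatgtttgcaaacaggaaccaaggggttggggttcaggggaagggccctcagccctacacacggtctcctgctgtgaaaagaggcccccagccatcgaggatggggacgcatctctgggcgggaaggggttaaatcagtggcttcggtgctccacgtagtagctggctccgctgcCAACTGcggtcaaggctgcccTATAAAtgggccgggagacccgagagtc
Cilp, chr9:65264930-65265179, plus strand: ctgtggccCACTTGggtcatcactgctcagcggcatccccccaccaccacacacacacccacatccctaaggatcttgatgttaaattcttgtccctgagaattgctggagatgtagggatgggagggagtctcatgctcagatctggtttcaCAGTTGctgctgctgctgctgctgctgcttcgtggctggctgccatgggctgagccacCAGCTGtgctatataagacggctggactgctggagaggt
An E-box match stood in 5 of the 7 promoters, with 3 in Cilp and 1 each in Fmod, Chad, Thbs4 and Cilp2, and in none for Tnmd and Kera. Among 32851 promoters of this length 66.2% held 1 or more, so the share among the 7 searched was close to that of all promoters. Chad alone of the 7 had TATAAA, which 12.4% of promoters held, and it began 28 bases before the start. The motif ACAAAG, bound by Sox factors, stood in 2 of the 7, Tnmd and Kera, and in 16.5% of promoters. These are matches of letters in a window, and binding was not measured.

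Fmod was the most abundant member for its length, with a mean of 42.2 ± 22.8 CPM per kb over the 8 libraries (SD, n = 8). Thbs4 followed at 35.8 ± 15.6 CPM per kb and Cilp at 18.7 ± 5.69 CPM per kb. Next were Scx at 8.17, Comp at 7.36 and Chad at 6.50 CPM per kb, then Cilp2 at 2.92, Tnmd at 2.73, Kera at 1.67 and Mkx at 0.678 CPM per kb. The step from Cilp down to Scx, from Chad to Cilp2 and from Tnmd to Kera held in 8 of 8 libraries. Neighbours whose order changed between libraries were Fmod and Thbs4 (6 of 8 in this order), Scx and Comp (4 of 8), Comp and Chad (6 of 8), and Cilp2 and Tnmd (3 of 8). Thbs4 exceeded Cilp in 7 of 8 libraries and Kera exceeded Mkx in 7 of 8.

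Most members differed widely between the 2 libraries of the same age. Fmod (chromosome 1, 134037254 to 134048277, GRCm38) had 262 CPM in replicate 1 of 12 months and 68 CPM in replicate 2. Its other values were 184 and 222 CPM (3 months), 129 and 53.5 (24 months) and 103 and 93.7 (30 months). One library of 12 months was thus the highest of all 8, and the other was below both of 30 months. Thbs4 (chromosome 13, 92751590 to 92794818) behaved alike, with 138 and 162 CPM (3 months), 214 and 64.3 (12 months), 103 and 61.5 (24 months) and 97.6 and 103 (30 months). Comp (chromosome 8, 70373558 to 70382066) was at 24.9 and 26.4 CPM (3 months), 37.1 and 14.6 (12 months), 16.7 and 10.1 (24 months) and 28 and 16.9 (30 months). For all 3 genes the 12 month libraries enclosed both values of 3 months.

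**Figure D1:**
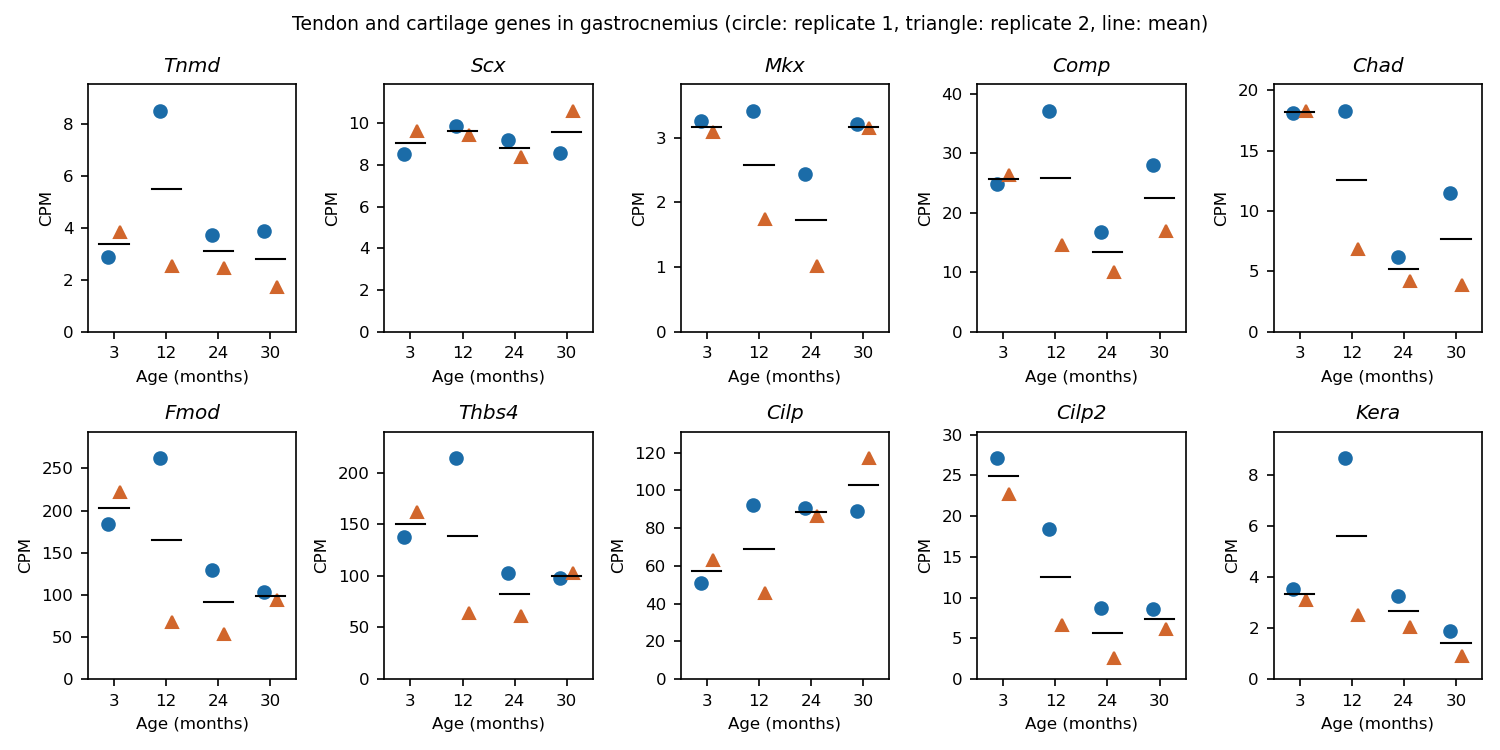
Level of each of the 10 genes in CPM (vertical axis, from 0, own scale per gene) at each age in months (horizontal axis), with 1 point per library and a line at the mean of 2. Replicate 1 of 12 months (circle) is the highest point for Tnmd, Mkx, Comp, Fmod, Thbs4 and Kera, Scx stays between 8.41 and 10.6 CPM, and Cilp is the gene whose old libraries lie above its young ones.

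Across the set, 10 of 10 members were lower in replicate 2 than in replicate 1 at 12 months, and the same was true at 24 months. At 12 months 8 of them, all but Scx and Mkx, were lower in replicate 2 by 1 or more on the log2 scale, against 3.80% of all tested genes, and the median difference was -1.44 against 0.00 over all genes. At 24 months 3 members, Mkx, Fmod and Cilp2, were lower by that much, against 6.21% of all genes, with a median of -0.70. At 30 months these were Tnmd, Chad and Kera, against 2.25%, with a median of -0.31 and 3 members higher in replicate 2. The libraries of 3 months lay close, with 0 members lower by that much in replicate 2, against 2.37% of genes, and a median of 0.13. The direction of a difference between replicates has no meaning of its own, since numbers only name the libraries.

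The members with the largest mean difference between libraries of an age were Cilp2 at 0.99, Tnmd at 0.97, Fmod and Kera at 0.90 and Chad at 0.88 on the log2 scale. The median gene of the table had 0.30. Among genes within 0.5 of its average log2 CPM, each of Tnmd, Comp, Chad, Fmod, Thbs4, Cilp2 and Kera was at percentile 97.0 to 99.0 of this measure. Mkx was at percentile 89.1 and Cilp at 89.7. Scx, the factor that defines the lineage, was at percentile 32.8, with a mean difference of 0.17. The biological coefficient of variation, edgeR's estimate of the spread beyond counting error, was 42.1% for Cilp2, 40.9% for Fmod and 39.2% for Tnmd, and 13.9% for Scx.

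**Figure D2:**
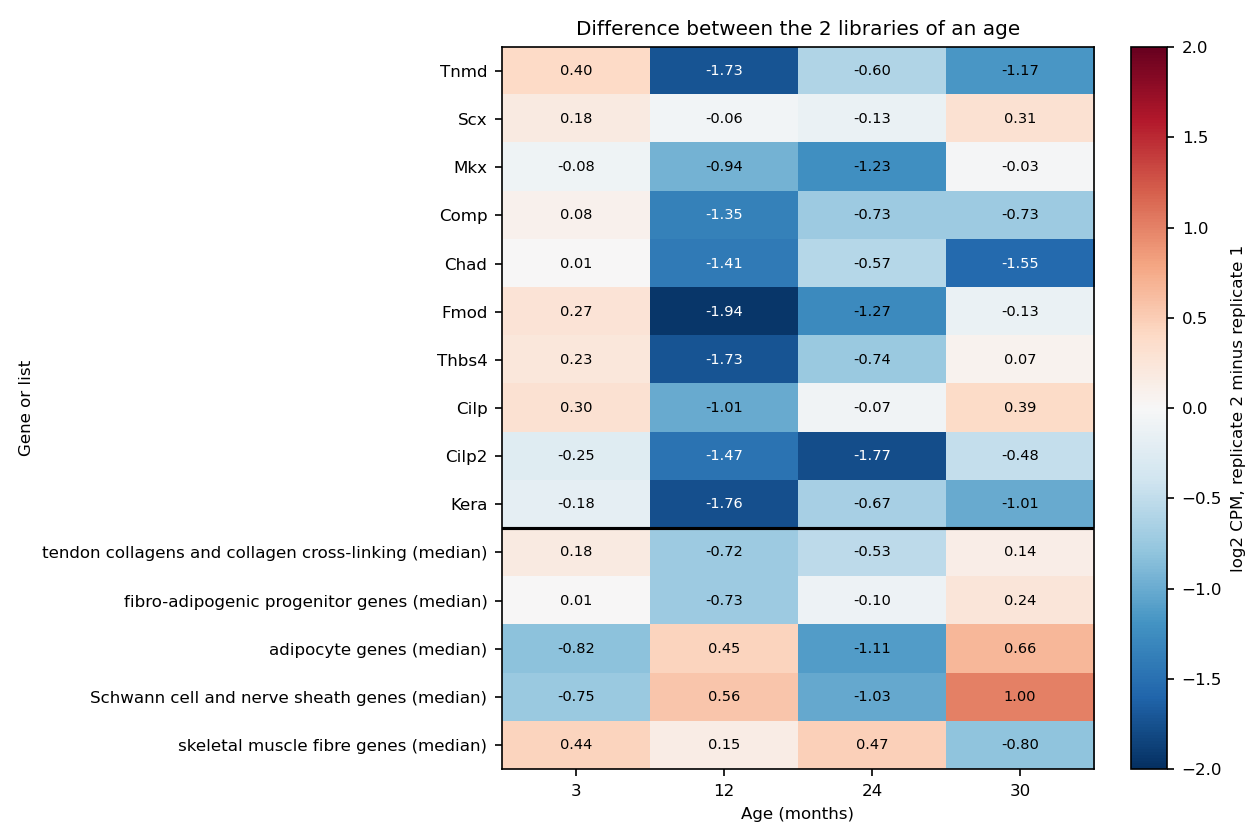
Difference in log2 CPM between replicate 2 and replicate 1 (colour and printed value) for each gene (upper rows) and for the median of 5 gene lists (lower rows) at each age in months. All 10 genes are negative at 12 and at 24 months, with Fmod at -1.94 the largest at 12 months and Cilp2 at -1.77 at 24 months, while the lists of adipocyte and nerve sheath genes are positive at 12 months and negative at 24 months.

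Other connective tissue genes also parted in these libraries. Tnc, a matricellular glycoprotein of tendon and the muscle-tendon junction, had 36.8 and 7.33 CPM in the libraries of 12 months and 19.0 and 7.91 CPM in those of 24 months. Of 22 collagen and cross-linking genes 20 were lower in replicate 2 of 12 months and 20 in replicate 2 of 24 months, with medians of -0.72 and -0.53. All 14 tendon-enriched matricellular genes were lower in both, with medians of -0.85 and -0.72. The 8 genes of fibro-adipogenic progenitors, the fibroblast-like cells between fibres, were lower in 8 of 8 cases at 12 months, with a median of -0.73, and in 5 of 8 at 24 months, with a median of -0.10. Macrophage genes had medians of -0.54 and -0.66, endothelial genes -0.41 and -0.27, and fibre genes went the other way, with 0.15 and 0.47. Adipocyte genes had medians of 0.45 at 12 and -1.11 at 24 months, and Schwann cell genes 0.56 and -1.03, so fat and nerve transcripts followed the members at 24 months and not at 12. The higher library of 12 and of 24 months was also the one with more kidney transcripts, at a summed 5.57 against 0.760 CPM and 4.27 against 0.682 CPM. At 3 months kidney transcripts were at 50.6 CPM in replicate 1 and 16.3 CPM in replicate 2, where 3 of 10 members were lower and 7 higher. Adipocyte and Schwann cell genes had medians of -0.82 and -0.75 at that age, against 0.13 for the members. At 30 months kidney transcripts were higher in replicate 2 (3.74 against 0.769 CPM), where 7 of 10 members were lower. In that library the medians of adipocyte, Schwann cell and macrophage genes were higher, by 0.66, 1.00 and 0.92, and that of fibre genes was lower, at -0.80. The connective tissue lists did not follow the members there: 3 of 22 collagen and cross-linking, 3 of 14 matricellular and 1 of 8 progenitor genes were lower. Their medians were 0.14, 0.41 and 0.24, against -0.31 for the members. The part of these other transcripts in the spread of the members was not tested.

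Scx (chromosome 15, 76457438 to 76459468) was level in every library, at 8.53 and 9.64 CPM (3 months), 9.87 and 9.45 (12 months), 9.19 and 8.41 (24 months) and 8.56 and 10.6 (30 months). Its likeness to the mean of the other 9 members over the 8 libraries was a Pearson r of 0.16, as a description. That of Cilp was lower still, at -0.16. Fmod had 0.96, Thbs4 0.94 and Comp 0.93, and the rest lay between 0.66 for Kera and 0.86 for Chad. Scx lies inside Bop1, a ribosome biogenesis gene on the opposite strand, with 0 shared exon bases. Bop1 was at 20.0 to 30.6 CPM, and whether reads were counted by strand is unknown here, so unspliced Bop1 RNA may be counted as Scx. Chad lies inside Acsf2 in the same way, with 0 shared exon bases, and Acsf2 was at 1.64 to 2.61 CPM, below Chad in each library. Mkx, the other tendon transcription factor, was at 3.26 and 3.08 CPM (3 months), 3.41 and 1.75 (12 months), 2.43 and 1.01 (24 months) and 3.21 and 3.14 (30 months). Tnmd (chromosome X, 133850980 to 133865577) was at 2.89 and 3.84, 8.49 and 2.53, 3.73 and 2.45, and 3.89 and 1.71 CPM at these 4 ages, so that its libraries of every later age overlapped those of 3 months.

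Set against that spread, no member passed the test of any comparison between ages. The test was edgeR's quasi-likelihood test over all 8 libraries, and a call needed an adjusted p (Benjamini-Hochberg over 19571 genes) below 0.05. The share of all genes called was itself small, at 0.0409% for 12 against 3 months, 0.102% for 24 against 3 months and 0.148% for 30 against 3 months. It was 0% for 24 against 12 months, 0.00511% for 30 against 12 months, 0% for 30 against 24 months, 0.0613% across the 4 ages and 0.133% for a slope on age. The number of members called was 0 in each of these 8. With limma-voom it was also 0 in each, and DESeq2 called 1 member, Kera, in 2 of them.

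Cilp2, Chad, Fmod, Thbs4, Comp, Kera and Tnmd had lower means at both 24 and 30 months than at 3 months, and none of these differences was called. Cilp2 (chromosome 8, 69880369 to 69887687) was at 27.1 and 22.7 CPM (3 months), 18.4 and 6.61 (12 months), 8.77 and 2.55 (24 months) and 8.59 and 6.14 (30 months). Both libraries of each later age were below both of 3 months, against 19.2%, 19.4% and 20.2% of all genes, each age taken alone. For the joint gap of Cilp2 over all later ages the share of all genes was not counted. The log2 fold change was -2.13 at 24 months (SE 0.63, unadjusted p = 0.0114, adjusted p = 0.519) and -1.76 at 30 months (SE 0.62, unadjusted p = 0.0251, adjusted p = 0.498). Chad (chromosome 11, 94565047 to 94569127) was at 18.1 and 18.3 CPM (3 months), 18.3 and 6.88 (12 months), 6.22 and 4.19 (24 months) and 11.5 and 3.89 (30 months). The libraries of 24 and 30 months were thus all below those of 3 months, a joint gap whose share of all genes was not counted. For Chad 1 library of 12 months stood at the level of 3 months. Its log2 fold change was -1.81 at 24 months (SE 0.58, adjusted p = 0.540) and -1.25 at 30 months (SE 0.56, adjusted p = 0.614), the latter -2.23 without replicate 1 of 30 months and -0.66 without replicate 2. Fmod had -1.15 (SE 0.61, adjusted p = 0.700) and -1.05 (SE 0.60, adjusted p = 0.709) at these ages. The thrombospondins Comp and Thbs4 had -0.94 and -0.86 at 24 months and -0.19 and -0.58 at 30 months, and Mkx had -0.88 and 0.00.

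These values moved with the library set, that is kidney transcripts above or below a summed 1 CPM. Once it was included in the model, Fmod had -0.76 at 24 and -0.42 at 30 months, Thbs4 -0.49 and -0.11, Chad -1.72 and -1.12, and Cilp2 -1.84 and -1.19. Both libraries of 3 months were above 1 CPM, so the set term rests on the later ages alone. The set was also read from these same counts. Leaving out 1 library of 24 months took Cilp2 to -3.28 or -1.51 and Fmod to -1.92 or -0.66 at that age.

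Cilp (chromosome 9, 65265180 to 65280605) went the other way. It was at 51.1 and 63.1 CPM (3 months), 92.4 and 45.8 (12 months), 90.9 and 86.4 (24 months) and 89.3 and 117 (30 months). The 4 libraries of 24 and 30 months were all above the 2 of 3 months. The share of all genes with this joint gap was not counted. Cilp values of 12 months lay on both sides of those of 3 months. At 24 months the log2 fold change was 0.64 (SE 0.30, adjusted p = 0.665). The mean went from 57.1 ± 8.47 to 103 ± 19.9 CPM between 3 and 30 months (SD, n = 2). That log2 difference, 0.86 with an SE of 0.30, did not pass (adjusted p = 0.455). With the library set included in the model, the difference was 1.09 (SE 0.22, adjusted p = 0.0379), and Cilp was the 1 member called, against 1.48% of all genes called as higher. The same fit called the slope of Cilp, 0.04 per month on the log2 scale (adjusted p = 0.0173), against 0.925% of all genes called as rising. Without that term the slope was 0.03 per month (adjusted p = 0.237). Left-out libraries, tried after the data were seen, ended the call at 30 months in 4 of 8 cases, with an adjusted p of 0.187 and 0.0941 without replicate 1 or 2 of 3 months and 0.0607 and 0.231 without replicate 1 or 2 of 30 months. The difference itself stayed between 0.94 and 1.25. The call of the slope ended without replicate 1 or 2 of 3 months (adjusted p = 0.0727 and 0.0535) and without replicate 2 of 30 months (adjusted p = 0.131). In the set above 1 CPM of kidney transcripts, Cilp exceeded 3 months by 0.70, 0.68 and 1.05 (log2) at 12, 24 and 30 months. In the set below 1 CPM it exceeded 12 months by 0.92 at 24 and 0.96 at 30 months. Each later age had 1 library per set. The reference of the set below 1 CPM was replicate 2 of 12 months, at 45.8 CPM the lowest Cilp value of all.

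**Figure D3:**
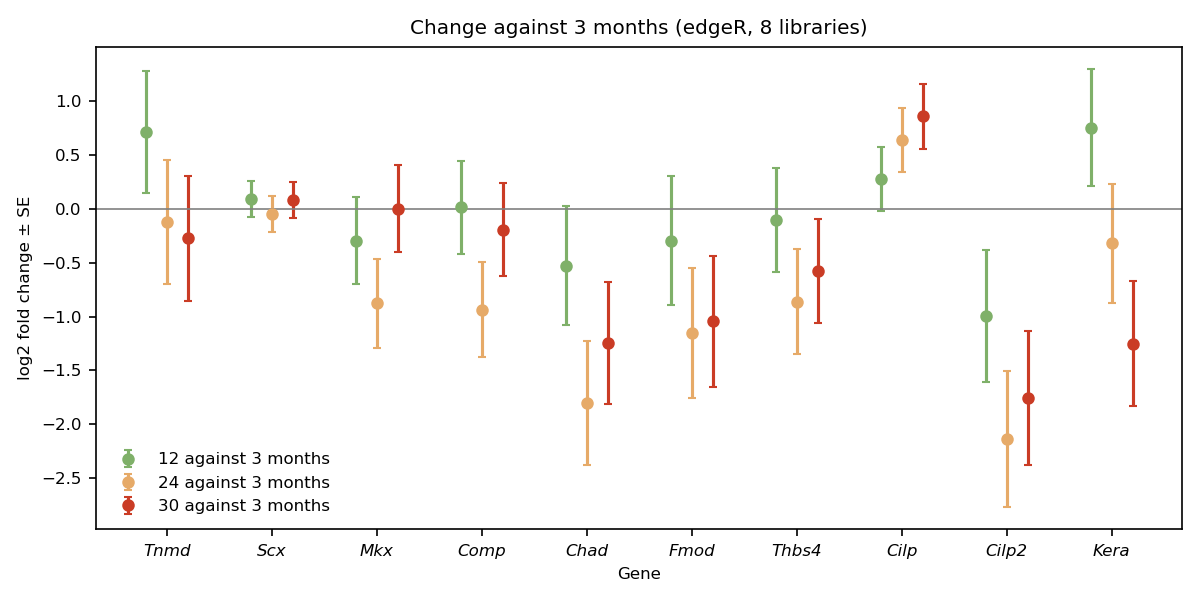
log2 fold change against 3 months (vertical axis) with its standard error for each of the 10 genes (horizontal axis) at 12, 24 and 30 months, from the test over 8 libraries. Cilp is above 0 and Cilp2 below 0 at each age, with Cilp2 at -2.13 at 24 months, and no point passed the adjusted threshold.

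Beside Cilp, 5 of 8 macrophage genes were called as higher at 30 months in the fit with the library set, against 1.48% of all genes. Among them was Lyz2, at 52.2 and 63.2 CPM in the libraries of 3 months and 64.4 and 138 CPM in those of 30 months. Another was C1qa, at 17.7 and 18.4 CPM and at 18.3 and 33.8 CPM. For both genes replicate 1 of 30 months thus lay near the level of 3 months. The macrophage calls were not tried with libraries left out. Without the set term 0 of the 8 were called. The part of macrophage genes in the level of Cilp was not tested.

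The members were also counted by direction. At 24 months 2 members, Chad and Cilp2, had an unadjusted p below 0.05 as lower and 0 as higher, against 3.33% and 4.23% of all genes. At 30 months there was 1 lower, Cilp2, against 3.34%, and 1 higher, Cilp, against 5.18%. At 12 months 0 members had such a p, against 5.50% of genes. The median log2 fold change of the 10 was -0.05 at 12 months, -0.87 at 24 months and -0.43 at 30 months, against 0.00, 0.01 and 0.01 over all genes, and 5, 9 and 7 members were negative. Once the library set entered the model the medians were 0.15, -0.55 and -0.05, with 4, 7 and 5 members negative. The median at 12 months thus changed sign and that at 30 months came near 0. All 3 comparisons share the libraries of 3 months.

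Groups that did not overlap were counted in the same way. At 24 months Mkx, Comp, Chad, Fmod, Thbs4 and Cilp2, 6 of 10, were lower in both libraries than in both of 3 months, against 19.4% of all genes, and Cilp was higher, against 20.0%. At 30 months Chad, Fmod, Thbs4, Cilp2 and Kera, 5 of 10, were lower, against 20.2%, and Cilp was higher, against 21.1%. At 12 months only Cilp2 was lower, against 19.2%, and 0 were higher, against 19.3%. Mkx and Comp had no gap at 30 months, where Mkx stood at 3.21 and 3.14 CPM beside 3.26 and 3.08 CPM at 3 months.

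Kera (chromosome 10, 97607205 to 97613688), a proteoglycan best known from the cornea, had its widest age difference between 30 and 12 months. It was at 3.54 and 3.11 CPM (3 months), 8.66 and 2.53 (12 months), 3.27 and 2.04 (24 months) and 1.89 and 0.921 (30 months). Both libraries of 30 months were below the other 6, and the share of all genes with such a gap was not counted. The gap was narrow for Kera, with 86 counts in replicate 1 of 30 months and 105 in replicate 2 of 24 months. Between 30 and 12 months its log2 fold change was -2.0 (SE 0.58, unadjusted p = 0.0083, adjusted p = 0.718), and it was the 1 member with an unadjusted p below 0.05 as lower, against 1.77% of genes. Without replicate 1 of 12 months the difference was -0.86, and without replicate 2 it was -2.63. DESeq2 called it there (adjusted p = 0.0122), against 0.0715% of genes called as lower, and across the 4 ages (adjusted p = 0.0386), against 1.18% of genes. Each of these calls was lost in 6 of the 8 cases with a library left out, tried after the data were seen, and held where replicate 2 of 12 months, or replicate 1 of 30 months, was the one left out. Without replicate 1 of 12 months DESeq2 gave an adjusted p of 1 between 30 and 12 months and of 0.573 across the ages. In edgeR's test across the ages Kera and Cilp2 had unadjusted p-values of 0.0449 and 0.0354, against 5.66% of genes below 0.05. Between 24 and 12 months 0 members were below 0.05, against 3.07% of genes, and between 30 and 24 months 0, against 3.10%. For the slope on age Chad, Fmod and Cilp2 were below 0.05 with a negative slope, against 4.40% of genes, and Cilp with a positive one, against 5.43%.

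Within a library, Cilp changed its place among the members, a ratio chosen after its values were seen. Cilp stood at 0.277 and 0.285 times the CPM of Fmod at 3 months, 0.353 and 0.673 times at 12 months, 0.704 and 1.62 times at 24 months and 0.868 and 1.25 times at 30 months. The ratio was higher in each of the 6 later libraries than in either young one. Against its relative Cilp2 it stood at 1.89 and 2.78 times at 3 months, 5.03 and 6.93 times at 12 months, 10.4 and 33.9 times at 24 months and 10.4 and 19.1 times at 30 months. The later ages do not overlap 3 months in either ratio, and 24 and 30 months overlap each other in both. Cilp had higher means, and Fmod and Cilp2 lower means, at 24 and 30 months than at 3 months. The ratios therefore add no separate support, and the share of gene pairs with such a gap was not counted. Changes of a ratio show unequal change of the 2 genes and not which of them moved.

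**Figure D4:**
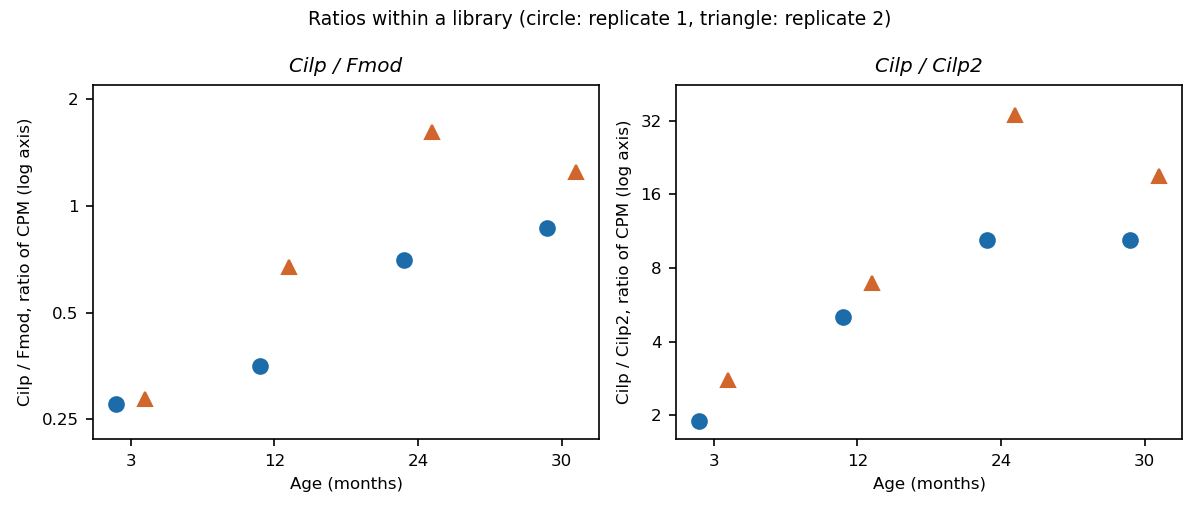
Ratio of the CPM of Cilp to Fmod (left) and to Cilp2 (right) on log axes in each library, by age in months (circles, replicate 1, and triangles, replicate 2). The 3 month libraries sit at 0.277 and 0.285 on the left and at 1.89 and 2.78 on the right, below all 6 later ones.

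The collagens that tendon cells secrete also had lower means at the later ages, without passing the test over 8 libraries. Col1a1, the main collagen of tendon, was at 447 and 505 CPM (3 months), 261 and 93.6 (12 months), 119 and 44.1 (24 months) and 126 and 138 (30 months). Its log2 fold change was -2.55 at 24 months (SE 0.56, adjusted p = 0.296) and -1.85 at 30 months (SE 0.54, adjusted p = 0.344). Col1a2 had -1.88 and -1.37 and Col3a1 -1.59 and -1.05. Of the 22 collagen and cross-linking genes 0 were called at either age, and 11 at 24 months and 6 at 30 months had an unadjusted p below 0.05 as lower, against 3.33% and 3.34% of all genes. A fit that included the library set called 3 as lower at 24 months, Col1a2, Col3a1 and Col5a2, against 0.118% of all genes, and 0 at 30 months, against 0.644%. At 30 months the same fit called Postn, a matricellular gene, as higher, with Xirp1 and Nes of the muscle-tendon junction list, against the 1.48% above. It called the cartilage gene Col9a1 as lower. The matricellular list had a median of -0.63 at 24 and -0.38 at 30 months, with 0 of 14 called, among them Sparc, a collagen-binding glycoprotein, at -0.88 (adjusted p = 0.225) and -0.70 (adjusted p = 0.259), Clec3b at -0.60 and -0.22 and Angptl7 at -0.49 and -0.50.

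Other proteoglycans had medians nearer 0. Dcn, the most abundant of them at 171 CPM per kb, was at 276 to 499 CPM and had log2 fold changes of -0.07 at 24 and -0.22 at 30 months. Ogn had -0.03 and -0.21 and Prelp -1.02 (adjusted p = 0.684) and -0.69 (adjusted p = 0.783). The list of 13 tested had 0 called and medians of -0.07 and -0.21. Among signals and factors that act on tendon cells, Smad3, which carries the TGF-beta signal, had -0.27 and -0.34 and the ligand gene Tgfb3 0.46 (adjusted p = 0.520) and 0.39 (adjusted p = 0.496), with 0 of 17 called and medians of -0.01 and 0.27. The list of genes of the muscle-tendon junction had medians of 0.03 and 0.20 with 0 of 12 called. RNA of whole muscle does not show whether their transcripts came from the junction. At 30 months 6 of the 12 had an unadjusted p below 0.05 as higher, against 5.18% of all genes, and 1 as lower, against 3.34%. The widest of the 6 was Ankrd1, a stretch-responsive ankyrin repeat gene, at 2.08 (SE 0.49, adjusted p = 0.238). Next came Nes, an intermediate filament gene, at 0.82 (SE 0.18, adjusted p = 0.189). The 1 lower gene was Col22a1, a collagen of the junction, at -0.34 (SE 0.14, adjusted p = 0.548), with -0.32 at 24 months. All 3 were named after their values were seen. Of the most abundant, Xirp2 had 0.05 and -0.20, Flnc, which crosslinks actin, 0.45 and 0.61 (adjusted p = 0.446 at 30 months), and the integrin gene Itgb1 -0.08 and -0.06.

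Genes outside the set with the most similar pattern were ranked by Pearson r, over the 8 libraries, between their log2 CPM and the mean of the centred log2 CPM of the members, among 9647 genes. Col12a1, a collagen that binds the surface of fibrils in tendon, came first with r of 0.97, followed by Ssc5d at 0.97, Flt4 at 0.96, Vhl and Col8a2 at 0.95, and Col6a2, Col15a1 and Klf7 at 0.94. Of these 8 genes 4 encode collagens, and the share of collagen genes among the 9647 was not counted. Col12a1 was at 43.7 and 47.0 CPM (3 months), 73.5 and 23.0 (12 months), 37.5 and 18.8 (24 months) and 42.5 and 31.4 (30 months). It had the high library of 12 months and the low one of 24 months that mark Fmod and Thbs4, and a log2 fold change of -0.30 at 30 months (adjusted p = 0.932). The range of Vhl was narrow, 5.82 to 7.14 CPM, and that of Col8a2 wide, 1.93 to 9.81 CPM.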

How the data were processed

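NEBNext Ultra libraries were prepared from Trizol-extracted RNA, per the labels. The deposited values are unnormalized counts for 49315 Ensembl genes in each of 8 files, beside gene lengths. The submitters' processing notes list Trimmomatic 0.36, STAR 2.5.2b, featureCounts, Subread 1.5.2, GRCm38 and mm10, with no order. Annotation release, strand setting and handling of multiply mapped reads are not stated. GENCODE M21 gave symbols for 48970 identifiers, and member positions are those in the deposited files.

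The members and lists were chosen with earlier results of these data known. All 10 members were named, with the 3 genes of highest CPM per kb in each list of matrix, signal and junction genes, any listed gene with an adjusted p below 0.05, and the 8 genes most like the members with an average log2 CPM of at least 2. Others, such as Tnc and the chondrocyte genes, were named after their values were seen. From the list of signals, 1 of the 3 genes is not reported here.

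Testing used edgeR 4.0.16 (R 4.3.3): filterByExpr, TMM and a robust quasi-likelihood fit over all 8 libraries, leaving 4 residual degrees of freedom. Each SE is the absolute log2 fold change over the square root of its F. The prior count of log2 CPM was 2. The procedure was tested on simulated data. Alternatives were RLE, no filter, a stricter filter (1 CPM in 2 libraries, average log2 CPM of 1), DESeq2 1.42.0, limma 3.58.1 with voom, a replicate block, the library set, and leaving out each library, whose age then rests on 1 library taken to be as variable as the rest. Same-age libraries were not duplicates: chi-square over degrees of freedom was 44.1 to 109.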

Additional observations from a re-analysis of the deposited data

How the results depend on the processing

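No member was called by edgeR with RLE factors, without the filter, with the stricter filter, with any library left out (0 to 0 in each of the 8 comparisons) or by limma-voom. With the replicate block the number was 0 throughout. Deviations of same-numbered libraries correlated at -0.36 to 0.26, so the numbers were not taken as pairs. With the library set as a term 1 member, Cilp, was called for 30 against 3 months and 1 for the slope. DESeq2 called 1, Kera, for 30 against 12 months and 1 across the ages. Left-out libraries ended the call of Cilp at 30 months in 4 of 8 cases and those of Kera in 6 of 8. The cause was not tested.

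Directions turned where log2 fold changes were small or the 12 month libraries entered. Comp at 12 against 3 months went from 0.012 to -0.014 with the stricter filter, -0.14 with limma-voom and -0.15 with the replicate block. With the library set as a term Thbs4 was at 0.14 for 12 against 3 months, Tnmd at 0.073 and Scx at 0.035 for 24 against 3, and Tnmd at 0.013 and Comp at 0.10 for 30 against 3. Mkx for 30 against 3 months was at -0.0031 with RLE, -9.2e-05 with the stricter filter and -0.0032 with DESeq2, and Scx for 30 against 12 at 0.02 with the stricter filter.

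Leaving out one library at a time moved the comparisons with 12 months widely. For 12 against 3 months the lowest value came without replicate 1 of 12 months and the highest without replicate 2: Tnmd -0.41 to 1.32, Mkx -0.85 to 0.094, Comp -0.81 to 0.52, Fmod -1.57 to 0.36, Thbs4 -1.22 to 0.50, Cilp -0.32 to 0.69 and Kera -0.39 to 1.37. For 24 against 3 months the ranges that crossed 0 were Tnmd -0.46 to 0.14 and Scx -0.13 to 0.046. For 30 against 3 months they were Tnmd -0.98 to 0.21, Scx -0.082 to 0.22, Mkx -0.037 to 0.043 and Comp -0.61 to 0.13. For 30 against 12 months they were Tnmd -1.69 to 0.14, Scx -0.17 to 0.13, Mkx -0.10 to 0.85, Comp -0.73 to 0.62, Chad -1.70 to 0.16, Fmod -1.41 to 0.53, Thbs4 -1.09 to 0.64 and Cilp2 -1.32 to 0.15. Kera kept its sign there, at -2.63 to -0.86. The cause was not tested. Counts of Kera and Mkx were the lowest of the set, and 2 libraries per age limit the precision of each value.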
